A study of Mus musculus with 18 samples.

Results

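Extra UNG was set against an empty vector in cells that carried active AID, and the outcome was read as the substitutions left in a reporter gene. The comparison rests on 6 of the 18 sequenced samples, 3 with added UNG (UNG) and 3 with the empty vector (Control), chosen by their sample labels and paired by experiment number. It covers 674 of the 679 reporter bases listed, those with at least 1000 base calls over the quality limit in all 18 samples. Of these, 426 were C:G base pairs (221 read as C and 205 as G) and 248 were A:T base pairs.

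All samples were NIH-3T3 cells, a mouse fibroblast line, transduced with retroviruses in the presence of polybrene and selected with puromycin or hygromycin. Both compared groups carried mOrangeSTOP, a reporter for the orange fluorescent protein mOrange with a stop codon inside the reading frame, and AID-ER, AID fused to a receptor domain that the drug OHT activates. They differed in the third vector, pBABE-UNG or pBabe-Empty, and both grew with 1 µM OHT over 11 days. The matching samples with AID-E58Q, a catalytically inactive form of AID, gave the background of amplification and sequencing, with 3 libraries per group. The DNA came from populations of transduced cells, and no removal of the cells' own UNG is named in the labels. Whether experiments 1, 2 and 3 began from independent transductions is not stated, so p-values measure only how far these libraries scatter, possibly for technical reasons. The amount of UNG or AID protein was not among the measurements used here.

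AID, activation-induced cytidine deaminase, turns cytosine in DNA into uracil, and in B cells it starts the diversification of antibody genes. Left in place, uracil is copied as thymine, which gives a transition, C>T on one strand and G>A read from the other. UNG, a uracil-DNA glycosylase, cuts the uracil base out and leaves a site without a base. Repair of that site can restore the cytosine, and copying past it can place any base, so it can yield transversions (C>G, C>A, G>C, G>T). AID prefers cytosines in the sequence WRCY, in which W stands for A/T, R for a purine and Y for a pyrimidine. The sequence AGCT is its palindromic form, with a preferred cytosine on each strand.

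The reporter held 7 AGCT sites, which are printed because most of the results turn on them. They contribute 13 bases to the comparison, the G and the C of each site except the last, whose C at base 700 had too few calls. Each is given as 21 bases of the coding strand, 5′ to 3′, as listed in the deposited sheets, with AGCT in capitals and named by the bases of the coding sequence that its G and C occupy. The reporter is a transgene, so numbering follows the sheets, in frame with its coding sequence, and no position in the mouse genome applies.
bases 150 and 151: gaccgctaAGCTgaaggtgac
bases 231 and 232: ccaaggcctAGCTgaagcacc
bases 267 and 268: ctacttcaAGCTgtccttccc
bases 384 and 385: caaggtgaAGCTgcgcggcac
bases 513 and 514: gaggctgaAGCTgaaggacgg
bases 579 and 580: gcccgtgcAGCTgcccggcgc
base 699: gcatggacgAGCTgtacaagt

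All 7 sites lie in the coding sequence in the same frame, with the G as the third base of one codon and the C as the first base of the next, a leucine codon CTG at the 6 sites where the C was measured. The G ends the in-frame stop codon TAG (codon 77) at base 231, a lysine codon AAG at bases 150, 267, 384 and 513, a glutamine codon CAG at base 579 and a glutamate codon GAG at base 699. Translated one at a time, all 13 possible transitions at these bases keep the residue or the stop, and all 26 possible transversions change it. At AGCT, the balance between transitions and transversions is thus also the balance between silent and amino acid changing substitutions of this reporter.

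The 6 libraries held 60868028 to 95011754 calls, with a median of 91188 to 141205 per base. Taking 3 counts as the limit, a substitution never seen at such a base could still have a frequency of 0.00212% in the deepest and 0.00329% in the shallowest library. Such limits cover counting error only, because PCR copies were not told apart by molecular identifiers. The Control library of experiment 3 carried the most substitutions at C:G bases (18.02 per 10000 calls, averaged over bases), followed by UNG of experiment 3 (15.5), UNG of experiment 1 (13.1), Control of experiment 1 (11.7), and Control and UNG of experiment 2 (7.49 and 7.52). The experiments thus differed in total substitution by more than the 2 groups did within them.

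At AGCT bases, transitions were fewer and transversions more frequent with added UNG in all 3 experiments. Transitions averaged 69.8, 34.7 and 119.9 per 10000 calls in Control of experiments 1, 2 and 3, and 18.999, 18.6 and 61.3 in UNG. Transversions averaged 43.1, 22.7 and 74.9 in Control and 62.6, 38.0 and 131.9 in UNG. Within each experiment, transitions were lower and transversions higher with UNG, while across experiments the 2 groups overlapped in both. The group means were 74.8 ± 42.8 against 33.0 ± 24.6 for transitions and 46.9 ± 26.3 against 77.5 ± 48.7 for transversions (SD, n = 3). The AID-E58Q libraries of both arms stood far below, at 3.04 ± 1.30 (Control) and 2.88 ± 1.26 (UNG) for transitions and 3.21 ± 0.752 and 2.92 ± 0.596 for transversions.

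Expressed as a share, the 2 groups lay apart by more than the spread within either. Transitions made up 61.8%, 60.4% and 61.6% of the substitutions at AGCT in Control and 23.3%, 32.8% and 31.7% in UNG. No UNG library reached a Control library, and the Control shares lay close together although their total substitution at AGCT ranged from 57.4 to 194.8 per 10000 calls. In the AID-E58Q libraries, where the few substitutions are background, the share was 47.6% ± 10.4 in Control and 48.5% ± 5.99 in UNG (SD, n = 3).

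**Figure D1:**
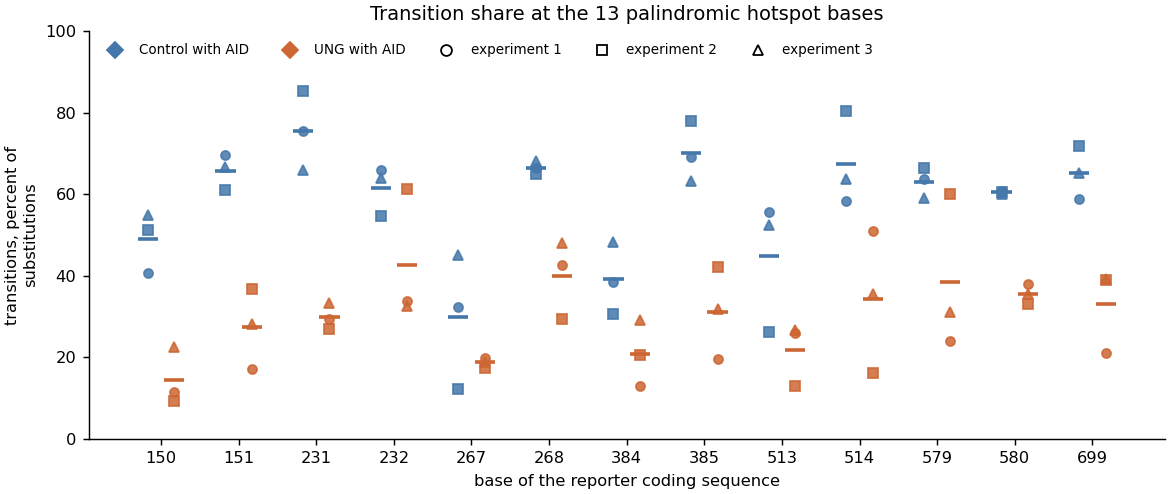
Transitions as a percentage of all substitutions at each of the 13 palindromic hotspot (AGCT) bases. Points are single libraries, shapes mark the experiment and bars are means of 3 libraries. At base 231 the Control libraries lie between 65.9% and 85.4% and the UNG libraries between 26.8% and 33.4%.

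The difference in transitions (loss) and in transversions (gain) was of unequal size in experiment 1. There, UNG minus Control at AGCT was -50.8 per 10000 calls for transitions and 19.5 for transversions, a gain of 38.4% of the loss. In experiments 2 and 3 the transition differences of -16.1 and -58.5 stood beside transversion differences of 15.3 and 57.1, or 94.8% and 97.5% of the loss. Total substitution at AGCT with UNG was therefore below Control in experiment 1 (81.6 against 112.9 per 10000 calls) and nearly the same in experiment 2 (56.5 against 57.4) and experiment 3 (193.3 against 194.8). These are averages over bases that differed widely. In group means, the gain was larger than the loss at 3 of the 13 bases, most of all at base 150 (324.3% of its loss). The median was 67.5% of the loss over the bases with a gain. The C and G bases of the sites also differed in the gain set against the loss. At the 6 C bases the gain was 27.1%, 32.6% and 69.7% of the loss in experiments 1, 2 and 3, and at the 7 G bases it was 52.0%, 185.3% and 132.0%. The difference between C and G bases was not tested.

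Most of the added transversions exchanged C and G. At AGCT bases, C>G or G>C averaged 37.1, 18.5 and 55.9 per 10000 calls in Control and 48.4, 33.0 and 112.1 in UNG of experiments 1, 2 and 3. The other kind, C>A or G>T, averaged 5.996, 4.17 and 18.96 in Control and 14.2, 4.97 and 19.8 in UNG. The exchange of C and G was thus 1.30, 1.78 and 2.00 times the Control level, and the other kind 2.37, 1.19 and 1.05 times.

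The UNG library of experiment 1 also carried more C>A and G>T where AID rarely acts. At the 139 SYC bases (S is C or G), which AID avoids, this kind stood at 5.52 per 10000 calls in that library and at 1.11 to 1.496 in the other 5, against 1.11 ± 0.160 (Control) and 1.41 ± 0.495 (UNG) with AID-E58Q (SD, n = 3). Its part in the AGCT transversions of that library was not tested. The exchange of C and G at SYC bases was 0.805 in that library and 0.395 to 0.745 in the others. The plot by class of base shows the 3 kinds side by side.

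**Figure D2:**
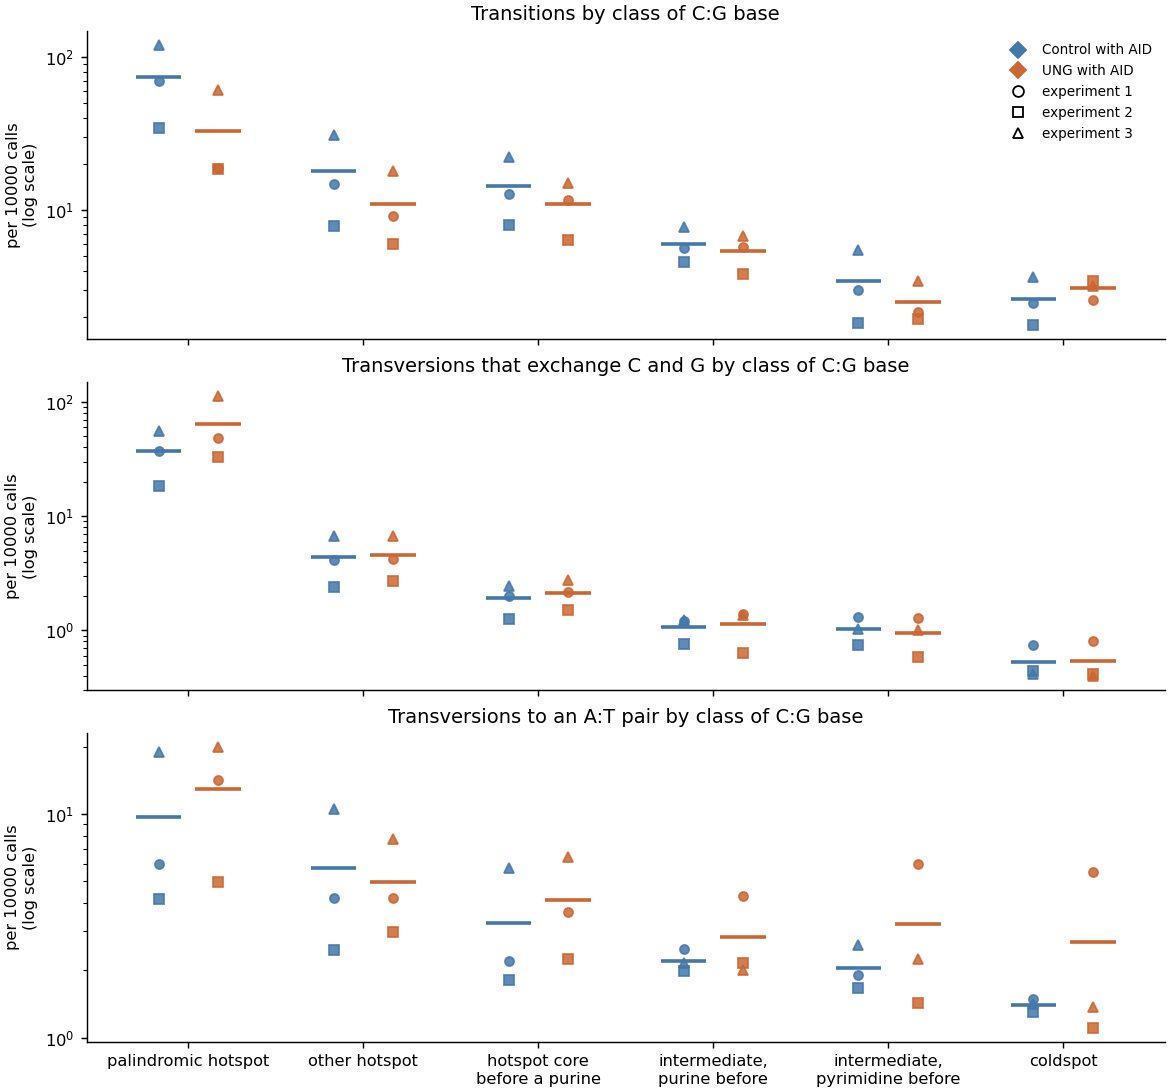
Transitions (top), transversions that exchange C and G (middle) and C>A or G>T (bottom) per 10000 calls, on log axes, averaged over the bases of 6 classes of C:G base. The classes are AGCT (palindromic hotspot), other WRCY (other hotspot), WRC before a purine, intermediate bases with a purine or a pyrimidine before the C, and SYC (coldspot). Points are libraries, shapes experiments and bars means of 3 libraries. In the bottom panel UNG of experiment 1 stands at 5.52 at the coldspots, above the other 5 libraries.

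Base 231, which ends the in-frame stop codon, had the smallest p of all bases for the ratio of transitions to transversions. Transitions there made up 1.08%, 0.496% and 1.66% of calls in Control and 0.308%, 0.225% and 0.812% in UNG of experiments 1, 2 and 3. Transversions made up 0.352%, 0.0848% and 0.858% in Control and 0.742%, 0.612% and 1.62% in UNG. Transitions were lower and transversions higher with UNG in each experiment, and the transition share, at 75.5%, 85.4% and 65.9% against 29.3%, 26.8% and 33.4%, did not overlap. The ratio of transitions to transversions was lower by 2.94 on the log2 scale (SE 0.73), with an unadjusted p of 3.88e-04 and an adjusted p = 0.258 over 665 bases (edgeR quasi-likelihood test), so it did not pass the threshold of 0.05. With only the 6 compared libraries in the fit the adjusted p was 0.00407, and with the experiment as a block 0.0751 (edgeR).

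The stop codon was read out by its coding effect. G231A, the transition, turns TAG into another stop, TAA, while G231C and G231T turn it into a tyrosine codon. Tokens give the reference base, its position in the coding sequence and the base called. G231C stood at 0.248%, 0.0651% and 0.730% of calls in Control and 0.681%, 0.604% and 1.48% in UNG, with 0.00764% ± 0.00272 and 0.0119% ± 0.00710 in the AID-E58Q libraries of the Control and UNG arms (SD, n = 3). G231T, the rarer change, stood at 0.103%, 0.0197% and 0.128% in Control and 0.0614%, 0.00747% and 0.138% in UNG. Summed over the 3 bases of the codon, substitutions that replace the stop with a residue made up 0.402%, 0.129% and 1.05% of calls in Control and 0.814%, 0.645% and 1.83% in UNG. This was 2.02, 4.99 and 1.74 times the Control level in experiments 1, 2 and 3, while the change to another stop was 0.284, 0.453 and 0.490 times. The groups overlapped across experiments in both sums. AID-E58Q libraries held 0.145% ± 0.0922 (Control) and 0.140% ± 0.0933 (UNG) of changes to a residue (SD, n = 3). By experiment these were 0.0953%, 0.0883% and 0.251% in Control and 0.106%, 0.0676% and 0.245% in UNG. The 0.129% of Control with AID in experiment 2 thus lay above both AID-E58Q libraries of that experiment and below those of experiment 3.

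**Figure D3:**
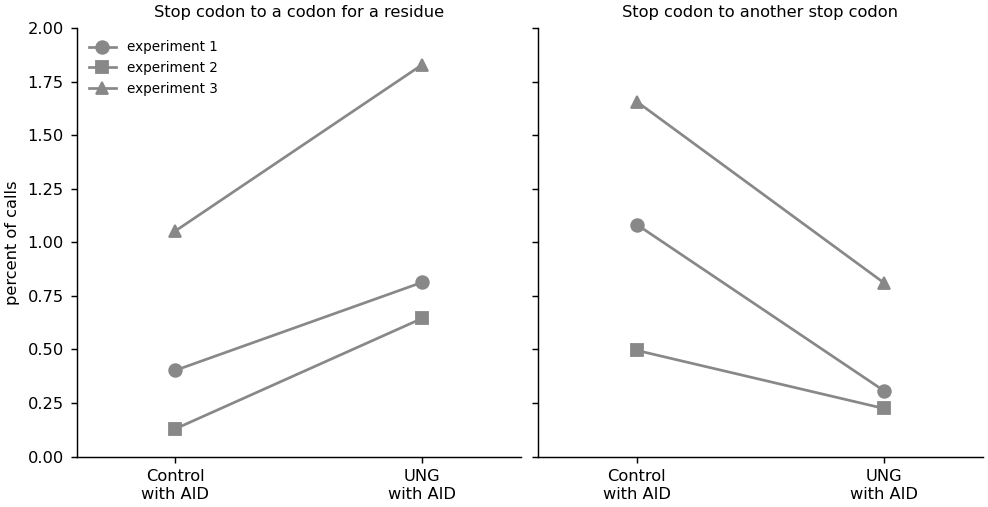
Percentage of calls at the in-frame stop codon (codon 77) that turn it into a codon for a residue (left) or into another stop (right), for Control and UNG with AID. Lines join the libraries of 1 experiment. Changes to a residue were higher with UNG in all 3 experiments (0.402% to 0.814% in experiment 1), and changes to another stop were lower.

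Bases 150 and 151, the G and C of the first AGCT site, had the highest mean transversions with UNG among the AGCT bases. At base 150 transitions made up 0.401%, 0.175% and 1.25% of calls in Control and 0.141%, 0.0919% and 0.745% in UNG. Transversions there made up 0.585%, 0.166% and 1.03% in Control and 1.09%, 0.893% and 2.56% in UNG. The change in means at base 150 was thus a gain in transversions of 0.920 percentage points of calls beside a transition difference of -0.284. The ratio of transitions to transversions was lower by 2.61 on the log2 scale (SE 0.74, adjusted p = 0.461, edgeR). Most of this gain was G150C, which turns a lysine codon into one for asparagine.

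At base 151 transitions made up 2.06%, 0.885% and 2.86% of calls in Control and 0.313%, 0.516% and 1.08% in UNG. Transversions there made up 0.902%, 0.562% and 1.43% in Control and 1.51%, 0.888% and 2.77% in UNG. Here the difference in mean transitions (-1.30 percentage points) was larger in size than that in transversions (0.757), the reverse of its neighbour. The ratio was lower by 2.41 on the log2 scale (SE 0.74, adjusted p = 0.653, edgeR). Bases 150 and 151 also passed the threshold with only the compared libraries fitted, with adjusted p = 0.00407 and 0.00364 (edgeR).

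**Figure D4:**
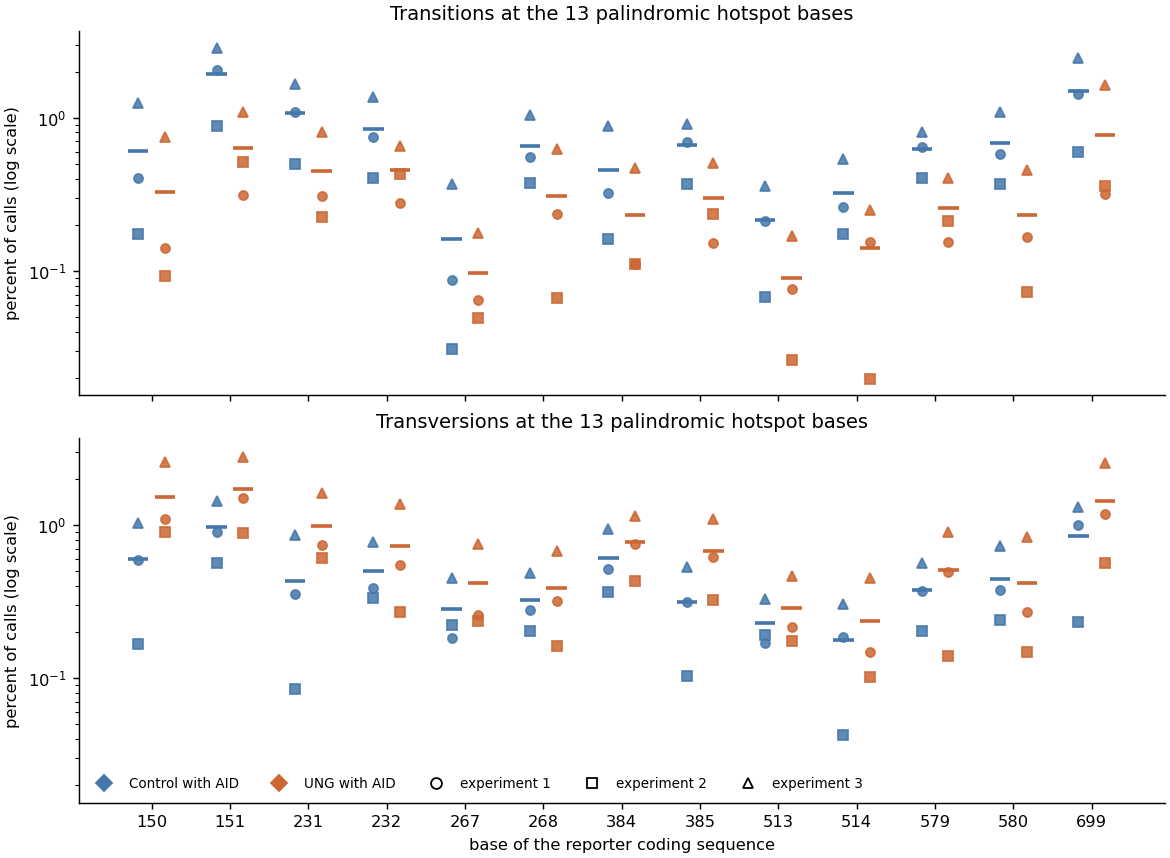
Transitions (top) and transversions (bottom) as a percentage of calls, on a log axis, at the 13 palindromic hotspot (AGCT) bases. Points are libraries, shapes experiments and bars means of 3 libraries. At base 151 Control transitions lie between 0.885% and 2.86% and UNG transitions between 0.313% and 1.08%.

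The other 10 AGCT bases varied in how far they followed. At base 699, measured on 2805 calls in the shallowest of the 6 libraries (Control of experiment 1), the transition share was 58.8%, 71.9% and 65.2% in Control and 21.2%, 39.0% and 39.1% in UNG. At base 385 it was 69.1%, 78.1% and 63.3% against 19.6%, 42.1% and 31.8%, and mean transversions were higher by 0.362 percentage points beside a transition difference of -0.361. Base 580 had fewer transitions with UNG (0.681% in Control and 0.232% in UNG in means) but no more transversions (0.446% and 0.417%), the one AGCT base with a lower mean of transversions. At base 267 the Control share itself was low, at 32.3%, 12.2% and 45.1%, and overlapped with UNG at 19.9%, 17.3% and 18.9%. The shares also overlapped at bases 232 and 579, where the UNG library of experiment 2 stood at 61.3% and 60.2%, and at base 513, where Control of experiment 2 (26.3%) lay just below UNG of experiment 3 (26.7%).

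Counted over the 13 AGCT bases, the fitted change in transitions was below 0 at 13 and in transversions above 0 at 12, with medians of -1.15 and 0.55 on the log2 scale. Over all bases tested the medians were -0.08 and 0.19. Transitions were lower with UNG in all 3 experiments at 11 of 13 AGCT bases, against 18.5% of all 674 bases. Transversions were higher in all 3 at 7 of 13, against 17.1% of all bases. The transition share of the 3 UNG libraries lay below all 3 Control libraries at 9 of 13, against 6.02% of 665 bases, and above them at 0 of 13, against 0.451%. The fitted ratio of transitions to transversions was below 0 at all 13, with a median of -1.59 and a range of -2.94 to -0.75, beside a median of -0.19 over all 665 bases. Across the 13 bases, the loss of transitions and the gain of transversions in group means correlated with Pearson's r = 0.59 and Spearman's rho = 0.49, a description over bases that share libraries and paired sites.

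At the 23 other WRCY bases, transitions were also lower with UNG in each experiment, while transversions were higher in experiments 1 and 2 and lower in experiment 3. Transitions averaged 14.96, 7.84 and 31.0 per 10000 calls in Control and 9.15, 5.996 and 17.99 in UNG. Transversions averaged 8.32, 4.90 and 17.3 in Control and 8.43, 5.68 and 14.5 in UNG. The fitted change was below 0 for transitions at 20 of 23 bases and above 0 for transversions at 5 of 23, with medians of -0.99 and -0.67. Transitions were lower in all 3 experiments at 10 of 23 and transversions higher at 2 of 23, against the 18.5% and 17.1% of all bases. The transition shares lay apart and lower with UNG at 4 of 23, against 6.02% of the 665 bases, and apart and higher at 2 of 23, against 0.451%. The difference between AGCT and the other WRCY bases was not tested.

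In this class 1 base stood apart in transversions. Base 237, the G of a non-palindromic site in codon 79, was singled out after its values were seen. It carried transversions in 0.244%, 0.110% and 0.457% of calls in Control and 0.542%, 0.355% and 1.25% in UNG, higher in every experiment. Without it, transversions at the other 22 bases averaged 7.59, 4.62 and 16.0 per 10000 calls in Control and 6.35, 4.32 and 9.49 in UNG, lower in every experiment, and the transition share was 65.0%, 59.9% and 63.9% against 58.5%, 54.3% and 62.0%. Averaged over these 22 bases, substitutions of both kinds were thus fewer with UNG, with totals of 21.7, 11.5 and 44.3 against 15.3, 9.46 and 24.9. Base 237 had the largest gain in mean transversions of its class, so the lower transversion average without it follows in part from that choice. The fitted change in transversions was above 0 at 4 of the 22.

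**Figure D5:**
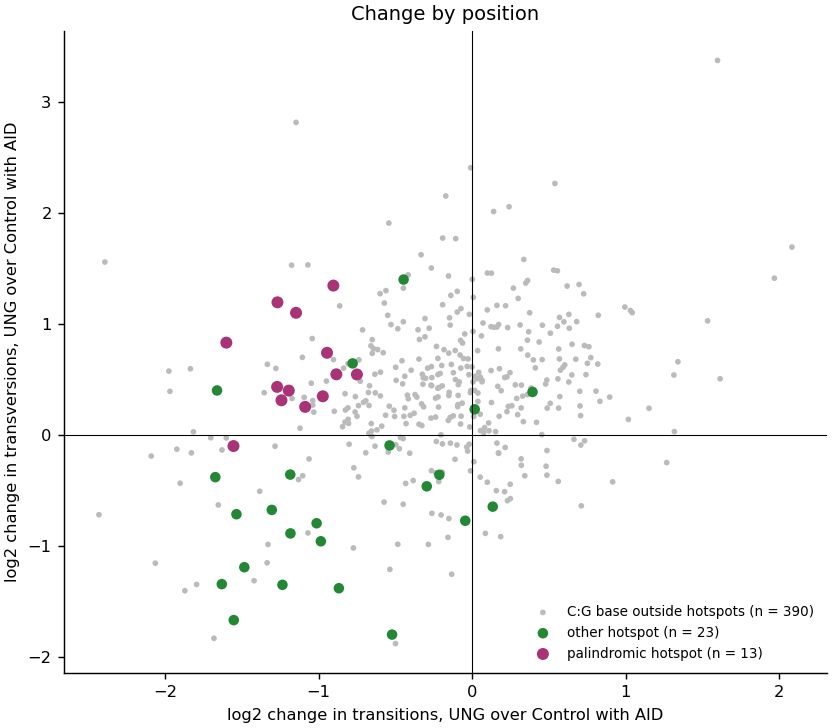
Fitted log2 change with UNG over Control in transitions (horizontal) and transversions (vertical) at 426 C:G bases. Large points are palindromic hotspot (AGCT, n = 13) and other WRCY bases (n = 23), and small grey points are the other 390. The AGCT bases lie left of 0 and 12 of 13 lie above it, while 18 of the 23 other WRCY bases lie below it.

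WRC bases before a purine, the 30 hotspot cores without the final pyrimidine, differed less in transitions than the other WRCY bases, but not in the transition share. Transitions averaged 12.8, 8.02 and 22.4 per 10000 calls in Control and 11.7, 6.42 and 15.1 in UNG, and transversions 4.23, 3.07 and 8.20 against 5.81, 3.74 and 9.19. Of the transversion differences, 0.146, 0.233 and 0.280 per 10000 calls were exchanges of C and G, and 1.44, 0.441 and 0.713 were C>A or G>T. The transition share was 75.1%, 72.3% and 73.2% against 66.9%, 63.1% and 62.1% and did not overlap. It differed by -8.27, -9.17 and -11.1 points in experiments 1, 2 and 3. At the 23 other WRCY bases it differed by -12.2, -10.2 and -8.83 points, and without base 237 by -6.51, -5.61 and -1.93. The difference between these classes was not tested. By base, the shares lay apart and lower with UNG at 6 of 30, against 6.02% of the 665 bases. At the 248 A:T bases, which AID does not deaminate, transitions averaged 1.84, 1.30 and 1.71 in Control and 2.08, 1.20 and 1.701 in UNG. A:T transversions were 6.62 and 6.68 in experiment 3 against 1.16 to 1.89 in the other 4 libraries, and the AID-E58Q libraries of experiment 3 showed the same level (6.59 and 6.83).

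Averaged over all C:G bases or all 36 WRCY bases, exact two-sided permutation tests over the 3 UNG and 3 Control libraries were run on 8 values. With 3 against 3 they cannot give a p below 0.1. The transition share at WRCY bases was lower with UNG by 26.5 percentage points (62.5%, 60.8% and 62.4% against 31.2%, 37.8% and 37.2%; exact p = 0.1, adjusted 0.4 over the 8). The share at C:G bases was lower by 14.3 points (exact p = 0.1, adjusted 0.4), with within-experiment differences of -22.6, -5.19 and -15.0. Both p-values are the smallest the design allows. At the 390 C:G bases outside WRCY the share differed by -18.8, 2.97 and -4.85 points in experiments 1, 2 and 3. In experiment 1 the transversion difference over all C:G bases was 3.50 per 10000 calls, of which 3.11 was C>A or G>T. WRCY transitions were 0.489 times the Control level (exact p = 0.2), lower in 3 of 3 experiments, and WRCY transversions 1.45 times (exact p = 0.5), higher in 3 of 3. For all C:G bases the ratios were 0.751 (exact p = 0.6) and 1.34 (exact p = 0.5), and for total substitution 0.989 at C:G (exact p = 1) and 0.858 at WRCY (exact p = 0.7). The median over WRCY bases, in place of the mean, gave a transversion ratio of 0.717; 23 of the 36 are not AGCT.

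Base by base, edgeR called almost nothing between UNG and Control. Transitions passed at 0 of 674 bases (0%; 20 at an unadjusted p under 0.05), transversions at 0 (0%; 24), C>G and G>C at 0 of 426 (0%; 27) and the ratio of transitions to transversions at 0 of 665 (0%; 21). limma called 0 in each of these, and DESeq2 called 0 in transitions, 1 in transversions and 1 in C>G and G>C. Of the 21 bases with an unadjusted p under 0.05 for the ratio, 7 were AGCT. The 5 with the smallest p, none of them called, were 231, 150, 151, 48 and 207. Base 207, the G of another WRCY site, had shares of 57.4%, 55.7% and 63.6% in Control and 29.9%, 12.5% and 31.2% in UNG. The ratio in UNG over Control with AID, set against the same ratio with AID-E58Q, was called at 0 of 665 bases (0%; 8 at an unadjusted p under 0.05, and 0 by limma). The 5 smallest p were at bases 231, 150, 472, 355 and 514. At base 231 it was -3.72 on the log2 scale (SE 1.05, adjusted p = 0.934, edgeR).

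C>A and G>T passed at 1 of 426 bases (0.235%), base 45, the first base listed. G>T there made up 0.0226%, 0.0255% and 0.0680% of calls in Control and 0.00361%, 0.00140% and 0.00803% in UNG, so that all 3 UNG libraries fell below all 3 Controls (log2 change -3.14, SE 0.74, adjusted p = 0.0321, edgeR). The reads of bases 45 to 57 or 59 stopped at nearly the same number in each library (499049 to 499919 in 5 and 385784 in Control of experiment 1), which touches bases 45, 48, 52 and 54. The call was lost without UNG of experiment 1 (adjusted p = 0.137), UNG of experiment 2 (0.135) or Control of experiment 3 (0.279), and with only the compared libraries fitted (0.968, edgeR). Without UNG of experiment 1, base 369 was called instead.

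With the experiment number as a block, more bases were called, few of them AGCT. Transitions fell at 5 of 674 (0.742%), bases 45, 48, 54, 379 and 534, and transversions rose at 1 (0.148%), base 369. Transitions at base 534 made up 0.169%, 0.0934% and 0.148% of calls in Control and 0.0154%, 0.0126% and 0.0481% in UNG, apart in all libraries (log2 change with the block -2.67, adjusted p = 0.0176, edgeR). Transversions at base 369 made up 0.0316%, 0.0197% and 0.0285% of calls in Control and 0.0964%, 0.110% and 0.117% in UNG, apart in all libraries and mostly C>A (log2 change with the block 2.03, SE 0.33, adjusted p = 0.00471, edgeR). C>A and G>T passed at 2 of 426 (0.469%), base 45 lower and base 369 higher.

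C>G and G>C passed with the block at 13 of 426 (3.05%), 4 higher and 9 lower. Those higher were bases 54, 210, 231 and 642, and base 231, the stop codon G, was the one AGCT base among them (log2 change 1.78, SE 0.50, adjusted p = 0.0390, edgeR). At base 54, C>G was nevertheless lower with UNG in experiment 2 (0.00241% of calls in Control and 0.00181% in UNG). At base 642, C>G rested on 1, 1 and 0 counts in Control and 16, 3 and 3 in UNG. The bases called lower with the smallest p were 52, 261, 462, 501 and 641. At base 462, G>C made up 0.0833%, 0.0192% and 0.0370% of calls in Control and 0.0123%, 0.00165% and 0.00588% in UNG, apart in all libraries. The ratio of transitions to transversions remained at 0 calls with the block (0%; 51 at an unadjusted p under 0.05, against 21 without it). In a separate fit without the block, C>A and G>T were left out of the ratio. There 4 of 414 bases were called, all lower with UNG. They were bases 54, 150, 151 and 231, of which the last 3 are AGCT (adjusted p = 0.0270, 0.0270 and 0.00920, edgeR).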

How the data were processed

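Substitutions were counted in a PCR product of the reporter from genomic DNA of 18 samples. The deposited sheets give read counts, counts of calls with a Phred quality over 20 and counts of the 12 substitutions per base, per the file headers. Per the labels' protocols, the reporter was amplified for 25 cycles and the library for 10. CASAVA 1.7, SAMtools 0.1.11 and Novoalign 2.07.04 are listed, per the submitters' processing notes, with no stated role. Bases 700 to 704 had fewer than 1000 calls in a library and were left out.

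Frequencies are counts over quality-passed calls. All 18 libraries entered a quasi-likelihood fit in edgeR 4.0.16 under R 4.3.3, offset by the log of those calls, with Benjamini-Hochberg adjustment across every base tested. The ratio of transitions to transversions was fitted on both counts of each library with a term per library, at bases with at least 10 substitutions in each compared group. limma 3.58.1 and DESeq2 1.42.0 were alternatives. The fits were also run on counts simulated with a fixed spread and no difference between experiments. That run does not show how they perform at the spread of these libraries. Named bases are the stop codon, all AGCT bases, and per fit the 5 largest calls per direction, the 5 smallest p where none was called, or up to 5 per direction called only with the block. The titles number samples by experiment. Deviations of same-numbered UNG and Control libraries correlated at r = 0.10, 0.03 and 0.42 for transitions and 0.22, 0.16 and 0.56 for transversions. Those of differently numbered libraries ranged from -0.31 to 0.20 for transitions and from -0.40 to 0.22 for transversions. The pairing itself was taken from the labels. No libraries were identical. Members and lists were chosen with earlier results of these data known.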

Additional observations from a re-analysis of the deposited data

Results flagged for a closer look

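Transitions at the 23 other WRCY bases were lower with UNG when AID was active, and level or slightly higher when it was not. With AID, UNG minus Control was -6.88 per 10000 calls in the mean of 3 experiments (-5.82, -1.85 and -12.99), and with AID-E58Q it was 0.341 (0.886, 0.0574 and 0.0781). At the 30 WRC bases before a purine the difference was -3.32 with AID (-1.05, -1.60 and -7.30) and 0.992 with AID-E58Q (1.85, 0.546 and 0.584). In both classes every difference was below 0 with AID and above 0 with AID-E58Q. As ratios of UNG over Control, those with AID-E58Q were 1.27, 1.02 and 1.01 at other WRCY bases. They were 1.42, 1.17 and 1.11 at WRC bases before a purine. Over all C:G bases they were 1.16, 1.28 and 1.07, so the rise with AID-E58Q was not particular to these classes. The difference between AID and AID-E58Q was not tested.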

How the results depend on the processing

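Calls were few under every setting. Transition calls numbered 5 with the experiment as a replicate block, 1 with TMM factors and 8 without experiment 3 (2 higher and 6 lower). Transversion calls numbered 1 with the block, 1 with DESeq2 and 2 without experiment 1 but with the block, a setting chosen after seeing the data. C>G and G>C calls numbered 13 with the block, 1 with DESeq2, 2 with TMM factors, 1 without experiment 2 and 1 without experiment 3, 3 under the added setting, and 0 to 2 when single libraries were left out. C>A and G>T calls numbered 2 with the block, limma, DESeq2, TMM factors or a coverage of 5000, and 0 with only the compared groups, without the first and last 25 bases (which removes base 45), without any 1 experiment, and under the added setting. They ranged from 0 to 1 when single libraries were left out. Calls of the ratio of transitions to transversions numbered 3 with only the compared groups, 4 with C>A and G>T left out and 1 without experiment 3. The cause of these differences was not tested. The total substitution ratio turned above 1 without Control of experiment 3 or UNG of experiment 2, with ranges of 0.793 to 1.23 (C:G) and 0.617 to 1.17 (WRCY) over single libraries left out, and for C:G was 1.06 as a median over bases. The WRCY transversion ratio became 0.717 as a median. The transition share stayed lower with UNG in all alternatives run, with differences of -17.5 to -9.57 points (C:G) and -27.7 to -24.4 points (WRCY) over single libraries left out. Exact sign-flip tests paired by experiment, the replicate block for these values, gave p = 0.25 for both shares, the smallest they can give. Among the AGCT bases, base 699 was shallow, with 2805 calls in Control of experiment 1.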

Other observations

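The G bases of the AGCT sites differed among themselves in the cells without added UNG. At the 4 sites preceded by A (AAGCT; bases 150, 267, 384 and 513) the Control transition share of the G ranged from 12.2% to 55.6% over the 3 libraries, and at the 3 sites preceded by another base (231, 579 and 699) from 58.8% to 85.4%. The shares of the 6 C bases ranged from 54.7% to 80.4%. This grouping was made after the values were seen and was not tested.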
